A study of Drosophila melanogaster with 8 samples.

Results

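The genes described here are 9 genes of metal handling in Drosophila: the metallothioneins MtnA, MtnB, MtnC and MtnD, the metal-responsive transcription factor MTF-1, the copper importer Ctr1A, the ferritin subunits Fer1HCH and Fer2LCH, and the metal transporter Mvl. They were taken by symbol, in the deposited gene table or in the Release 6 annotation, from 14012 genes, and all 9 were found. Polyadenylated RNA was sequenced from vesicles isolated as exosomes from S2 cells (4 libraries) and from the S2 cells themselves (4 libraries). S2 is an embryonic Drosophila cell line with features of blood cells, and the labels name no treatment or genotype for either group. Libraries were numbered 1 to 4 in both groups; whether they came from separate cultures is not stated, so p-values measure only how far these libraries differ, some of which may be technical. In such bulk libraries, fewer cells or vesicles carrying an mRNA and less of it in each cannot be told apart.

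Metallothioneins are short, cysteine-rich proteins that bind copper, zinc and cadmium, and in flies MTF-1 switches their genes on when these metals are in excess. Ctr1A brings copper into the cell across the plasma membrane, and Mvl, the fly relative of the mammalian NRAMP and DMT1 proteins, moves manganese and iron. Insect ferritin stores iron inside the secretory pathway and is assembled from heavy chains, which oxidize iron (Fer1HCH), and light chains (Fer2LCH).

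Values are FPKM, fragments scaled to transcript length and library size by the authors, summed over the transcripts of a gene. The summed FPKM of a library ran from 91304 in exosome replicate 3 to 1140885 in cell replicate 2, so the rank within a library and the share of its summed FPKM are given beside the values. The depth read from the steps in the values was about 101000 fragments in exosome replicate 2 and 1950000 to 6420000 in the other 5 libraries where a step was found; exosome replicate 1 and cell replicate 1 gave none. In exosome replicate 1, 64 of the 145 most abundant genes, those whose median over the remaining 7 libraries reached 200 FPKM, were listed at 0 (44.1%), while each of the other libraries lost at most 1.71% by the same measure. Of 9 plasmatocyte markers, the blood cell that S2 cells resemble, 8 were above 0 in all cell libraries, with a sum of 13.9 to 2152 FPKM. The sum was at most 0.284 FPKM in cells for 4 crystal cell markers, at most 0.539 for 4 germline markers, 1.73 to 28.4 for 3 lamellocyte markers and 25.1 to 239 for 6 fat body markers.

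MtnA was among the 3 most abundant mRNAs in 6 of the 8 libraries, in exosomes as in cells. MtnA (CG9470, chromosome arm 3R) was listed at 0, 29638, 4752 and 26476 FPKM in exosome replicates 1 to 4. Cell replicates 1 to 4 gave 5667, 67976, 5665 and 2863 FPKM. Exosome replicates 2 to 4 placed it at rank 1, 3 and 2, the cell libraries at 11, 1, 1 and 3. Its share of the summed FPKM was 8.92%, 5.20% and 6.25% in exosome replicates 2 to 4, against 0.777%, 5.96%, 5.51% and 2.59% for cells. By share, exosome replicates 2 and 4 lay above all cell libraries and exosome replicate 3 between them. By FPKM the groups overlapped, with exosome replicate 1 lowest and cell replicate 2 highest.

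**Figure D1:**
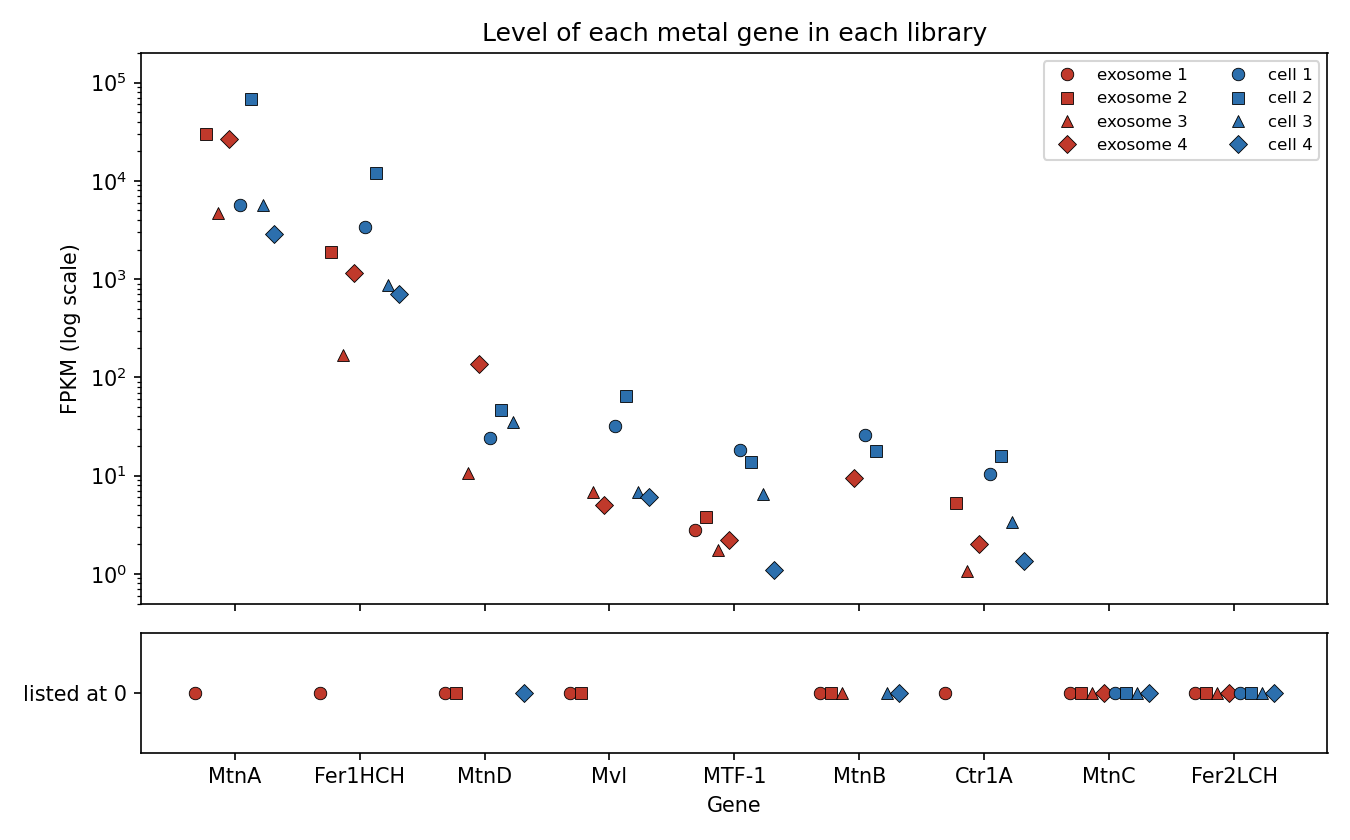
FPKM of each gene in each library, on a log scale, with values listed at 0 in the strip below; red symbols are exosome and blue symbols cell libraries. MtnA lies above Fer1HCH in every library where either was above 0, and MtnC and Fer2LCH were listed at 0 in all 8 libraries.

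MtnA did not pass the test between exosomes and cells. The difference was -2.68 (SE 2.17) on the log2(FPKM + 1) scale, exosome minus cell (limma, adjusted p = 0.721 over 5868 genes tested). Its direction rested on exosome replicate 1, where MtnA was listed at 0: without that library the difference was 0.80 (limma, adjusted p = 0.964). The annotated MtnA-RA mRNA has 329 bases, of which 120 are coding. The steps in the values corresponded to transcripts shortened by 200 to 300 bases, by 220, 200 and 300 in exosome replicates 2 to 4 and by 200, 240 and 300 in cell replicates 2 to 4. That is most of the length of MtnA-RA, and the part of the authors' length correction in its FPKM was not tested.

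The other metallothioneins were far lower and were not found in all libraries. MtnD (CG33192, 3R) was listed at 0, 0, 10.5 and 136.8 FPKM across exosome replicates 1 to 4, whereas cells gave 24.3, 47.0, 35.5 and 0. Exosome replicate 4 held the highest value, and its rank of 239 was also the highest of MtnD, followed by 345 in cell replicate 3 and 784 in exosome replicate 3. In cell replicates 1 and 2 MtnD ranked 3039 and 1621. The groups overlapped, and the difference of -1.20 (SE 1.40) on the log2(FPKM + 1) scale did not pass (limma, adjusted p = 0.782). Its sign was not stable: the difference was 0.50 with quantile normalization, and from -2.68 without exosome replicate 4 to -0.31 without exosome replicate 1 or 2. It was -2.49 without cell replicate 4 and -0.62 and -0.76 without cell replicates 2 and 3.

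MtnB (CG4312, 3R) was above 0 in 3 libraries, with 9.50 FPKM in exosome replicate 4 and 25.6 and 17.8 in cell replicates 1 and 2. It ranked 2145, 2915 and 3199 there. MtnC (CG5097, 3R) was listed at 0 in all 8 libraries. MtnB-RA has 320 bases and MtnC-RA 268 in the Release 6 annotation, and the annotated mRNA of MtnD, under another transcript name than the deposited one, has 274. Of 61 single-transcript genes of up to 330 bases, 34 (55.7%) were listed at 0 in all libraries, against 24.0% of 8978 longer ones. A value of 0 is therefore not read as absence of these mRNAs.

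**Figure D2:**
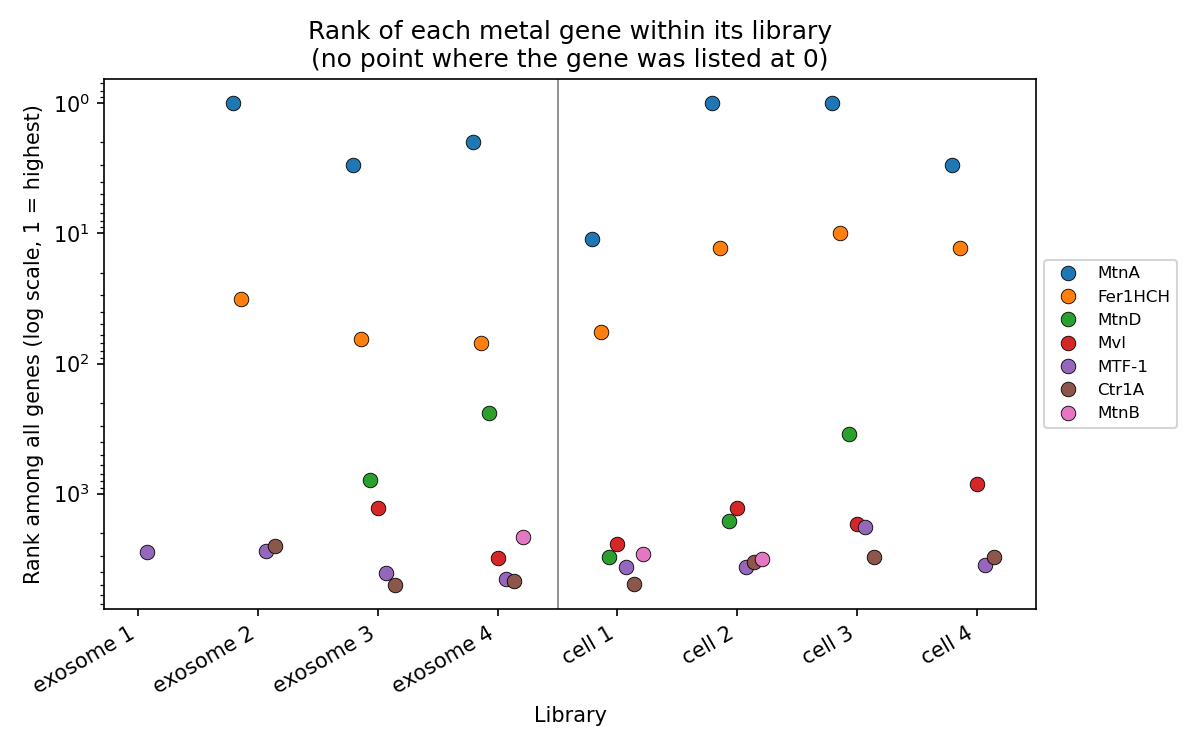
Rank of each gene among all genes of its library on a log scale, with 1 at the top and no point where the gene was listed at 0. MtnA ranks 1 to 11 and Fer1HCH 10 to 70 in the 7 libraries that list them above 0, and the metal regulator and transporters rank from 835 to 5001.

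MTF-1 mRNA was low and was the one gene of the 9 that all 8 libraries listed above 0. MTF-1 (CG3743, 3L), the transcription factor that activates metallothionein genes, reached 2.79, 3.82, 1.76 and 2.20 FPKM across exosome replicates 1 to 4, whereas cells gave 18.4, 13.7, 6.44 and 1.09. All exosome values lay below cell replicates 1 to 3 and above cell replicate 4. In exosome replicate 2, of about 101000 fragments, Ctr1A at 5.23 FPKM corresponded to about 1 fragment. MTF-1 in that library came from transcript RE alone, at 3.82 FPKM over 2812 bases, against 2103 bases for Ctr1A. Its value above 0 and its rank there thus rest on very few fragments as well. The fragments behind the MTF-1 values were not estimated library by library. Its ranks were 2819, 2766, 4042 and 4547 across exosomes, against 3689, 3660, 1816 and 3544 for cells, and these overlapped between the groups. The libraries listed from 3145 (exosome replicate 2) to 9735 (cell replicate 1) genes above 0. As a percent of those genes the ranks were 60.3, 87.9, 59.2 and 63.3 across exosomes, against 37.9, 44.9, 25.2 and 50.3 for cells. On that scale every exosome library placed MTF-1 lower than every cell library, while MtnA, MtnD and Mvl overlapped between the groups. The share of all genes separated in this way was not counted, so the separation is not read as a trait of MTF-1. With percentile ranks over all genes, the difference of MTF-1 was -2.61 points (limma, adjusted p = 0.894), beside a median of -6.05 over all genes tested. The difference was -1.20 (SE 1.27) on the log2(FPKM + 1) scale (limma, adjusted p = 0.766), and -0.10 with quantile normalization.

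The transcripts that made up this level differed between libraries. Of the 5 deposited MTF-1 transcripts, RA was above 0 in all 4 cell libraries, at 39.6% to 68.2% of the gene's FPKM, and in exosome replicate 4 (83.3%). In the other exosome libraries RA was listed at 0. There RE gave 48.8%, 100% and 13.7% of the gene in replicates 1, 2 and 3, beside RC in replicate 1 and RD in replicate 3. RB and RC were above 0 together in cell replicate 1, at 19.7% and 40.6%. In the Release 6 annotation the coding part of RB, RD and RE has 1710 bases, that of RA 2373 and that of RC 3018. At levels of a few FPKM such splits rest on few fragments, and no test was made of them.

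Ctr1A mRNA was near the limit of what the shallow libraries can count. Ctr1A (CG3977, X) was listed at 0, 5.23, 1.07 and 2.02 FPKM across exosome replicates 1 to 4, whereas cells gave 10.5, 16.0, 3.42 and 1.36. It has a single deposited transcript, annotated at 2103 bases, and its values correspond to about 1, 3.96 and 7.92 fragments in exosome replicates 2 to 4. In cell replicates 2 to 4 they correspond to about 60.1, 14.9 and 15.7 fragments. Exact Poisson 95% intervals, which cover counting error only, run from 0.133 to 29.2 FPKM in exosome replicate 2 and from 12.2 to 20.6 in cell replicate 2.

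The intervals of exosome replicates 3 and 4, 0.294 to 2.77 and 0.88 to 4.02 FPKM, each overlap that of cell replicate 3, 1.92 to 5.67 FPKM. The groups thus overlapped, with exosome replicate 2 above cell replicates 3 and 4 on a single estimated fragment. The difference was -1.43 (SE 1.16) on the log2(FPKM + 1) scale (limma, adjusted p = 0.721), and -0.25 with quantile normalization. Ranks were 2532, 5001 and 4694 for exosome replicates 2 to 4, against 4932, 3372, 3050 and 3059 for cells. As a percent of the genes above 0 in each library they were 80.5, 73.3 and 65.3, against 50.7, 41.4, 42.3 and 43.4. These exosome libraries thus lay below all cell libraries on that scale, on few estimated fragments. The share of all genes doing so was not counted, so the separation is not read as a trait of Ctr1A. With percentile ranks over all genes, its difference was -12.8 points (limma, adjusted p = 0.806), beside a median of -6.05 over all genes tested.

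Mvl mRNA was listed in every cell library and in 2 of 4 exosome libraries. Mvl (CG3671, 3R) had 32.1, 64.1, 6.87 and 6.06 FPKM in the cell replicates, and its share of the summed FPKM was 0.00555% ± 0.000937 (SD, n = 4). In exosomes it was listed at 0, 0, 6.76 and 5.05 FPKM. By FPKM, exosome replicate 3 exceeded cell replicate 4, and the groups overlapped at that single point. By share, exosome replicate 3 (0.00740%) lay above all 4 cell libraries, at 0.00440% to 0.00669%, and exosome replicate 4 (0.00119%) below them. It ranked 1286 and 3142 there, against 2436, 1294, 1712 and 835 for cells. The difference of -2.83 (SE 1.34) on the log2(FPKM + 1) scale had an unadjusted p of 0.0345 and did not pass after adjustment (limma, adjusted p = 0.708). With quantile normalization it was -1.62.

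Of the 3 deposited Mvl transcripts, RB gave 80.4%, 80.1% and 76.3% of the gene in cell replicates 2 to 4 and 100% and 71.4% in exosome replicates 3 and 4. RA gave the rest. In cell replicate 1 RC added 40.3%, a transcript listed at 0 in the other libraries, and RB was at 37.9%.

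Ferritin heavy chain mRNA stood next to MtnA in abundance, and MtnA exceeded it by a larger factor in each exosome library that listed both than in any cell library. Fer1HCH (CG2216, 3R) was listed at 0, 1909, 167 and 1148 FPKM across exosome replicates 1 to 4, whereas cells gave 3415, 11991, 867 and 705. Exosome replicates 2 to 4 placed it at rank 32, 65 and 70, the cell libraries at 57, 13, 10 and 13. Its share of the summed FPKM was 0.575%, 0.183% and 0.271% in exosome replicates 2 to 4, against 0.468%, 1.05%, 0.844% and 0.638% in cells. By raw rank and by share the groups overlapped through exosome replicate 2 and cell replicate 1, while the other cell libraries lay above the exosomes. As a percent of the genes above 0 in each library, the ranks were 1.02, 0.95 and 0.97 in exosome replicates 2 to 4. Cells gave 0.59, 0.16, 0.14 and 0.18, so on that scale these exosome libraries lay below all cell libraries. The share of all genes separated in this way was not counted, so the separation is not read as a trait of Fer1HCH. With percentile ranks over all genes and all 8 libraries, the difference of Fer1HCH was -16.8 points (limma, adjusted p = 0.806), beside a median of -6.05 over all genes tested.

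The difference of Fer1HCH was -4.01 (SE 1.99) on the log2(FPKM + 1) scale, with an unadjusted p of 0.0433 that did not pass after adjustment (limma, adjusted p = 0.708). This SE was in practice the spread pooled over genes of like level. The unadjusted p thus depends on that pooling and not on the spread of Fer1HCH itself. Without the filter the SE was 2.47 for Fer1HCH, 3.67 for MtnA and 1.12 for Mvl. Among all genes tested, 0.102% had a lower difference than Fer1HCH. The size rested on exosome replicate 1, without which the difference was -1.64 (limma, adjusted p = 0.865) beside a median of -0.95 over all genes.

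The ratio of MtnA to Fer1HCH does not depend on the scale of a library, but it does depend on the length correction. MtnA-RA has 329 bases, of which the fitted shortening of 200 to 300 bases would take most, though transcripts so short were not fitted. The Fer1HCH transcripts RA, RB and RD have 1135 to 1677. The part of this correction in the ratio was not tested. It was 15.5, 28.4 and 23.1 for exosome replicates 2 to 4, against 1.66, 5.67, 6.535 and 4.06 for cells. In exosome replicate 1 both were listed at 0. The lowest exosome ratio was thus above the highest cell ratio; the pair was chosen after its values were seen, so no test is given. The same held for MtnA over 523 of 5867 other tested genes, 8.91%, and over 21 of 144 tested genes whose median FPKM reached 200, 14.6%. The opposite separation from all cell libraries, with MtnA lower in exosomes, held for 0.0682%. A gene listed at 0 was given a very large ratio. Genes at 0 in exosome replicate 2, 48.9% of those tested, therefore could not count in the opposite direction. In that library they met the condition for MtnA higher by this rule alone, which can raise the shares in that direction. The shares for the 2 directions are thus not compared. Without cell replicate 1, MtnA was higher in this way over 9.53%. Separation from MtnA in this direction was therefore not particular to Fer1HCH.

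**Figure D3:**
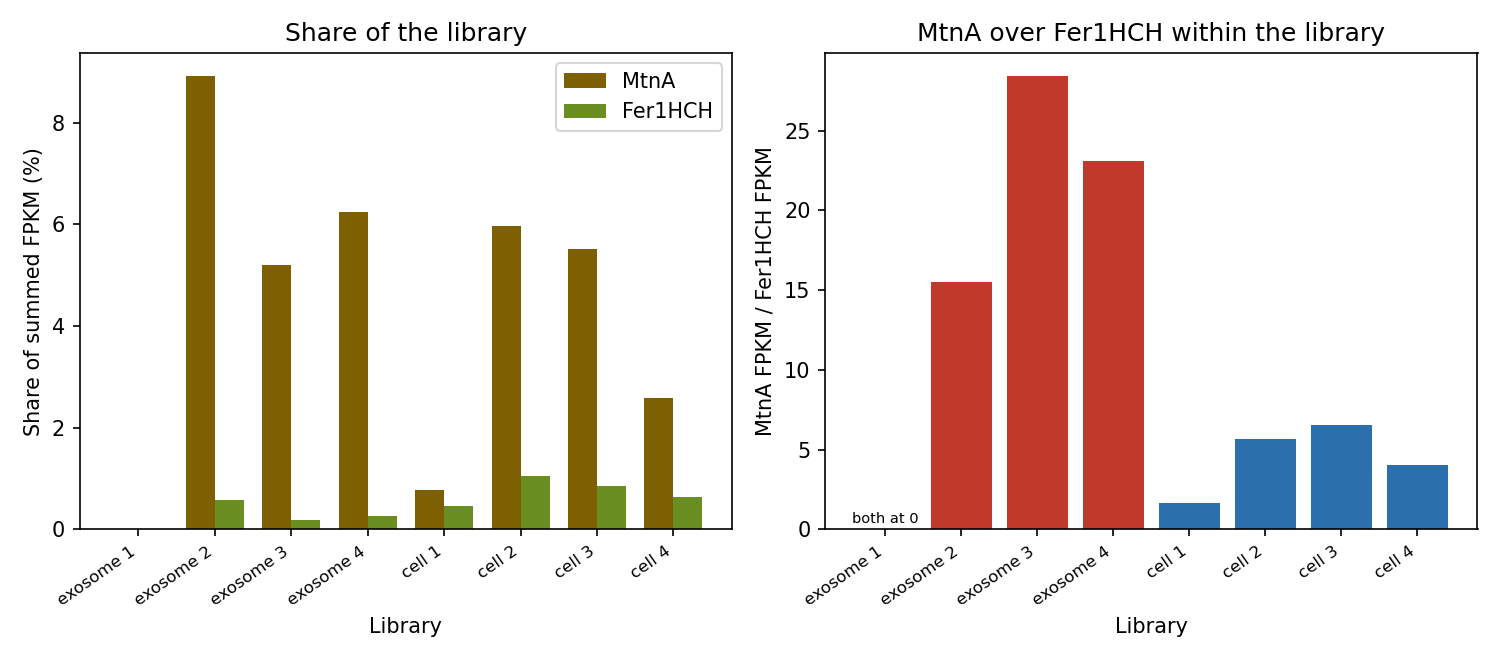
Left, share of the summed FPKM held by MtnA and Fer1HCH in each library, in percent; right, the ratio of their FPKM within each library, exosomes in red and cells in blue. Exosome replicates 2 to 4 have ratios of 15.5 to 28.4 and the cells 1.66 to 6.535, and in exosome replicate 1 both genes were listed at 0.

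Fer1HCH has 5 deposited transcripts, of which RC and RE were listed at 0 in all libraries. RA gave 42.6%, 28.2% and 57.1% of the gene in exosome replicates 2 to 4, against 44.9%, 33.7%, 38.5% and 42.2% for cells. RB was listed at 0 in exosome replicate 2 and RD in cell replicate 1, where the gene was split between the 2 others. In the remaining 5 libraries RA, RB and RD were all present, with no share under 18.2%. In the Release 6 annotation RA, RB and RD have the same coding length, 615 bases, within 1677, 1135 and 1187 bases in all.

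**Figure D4:**
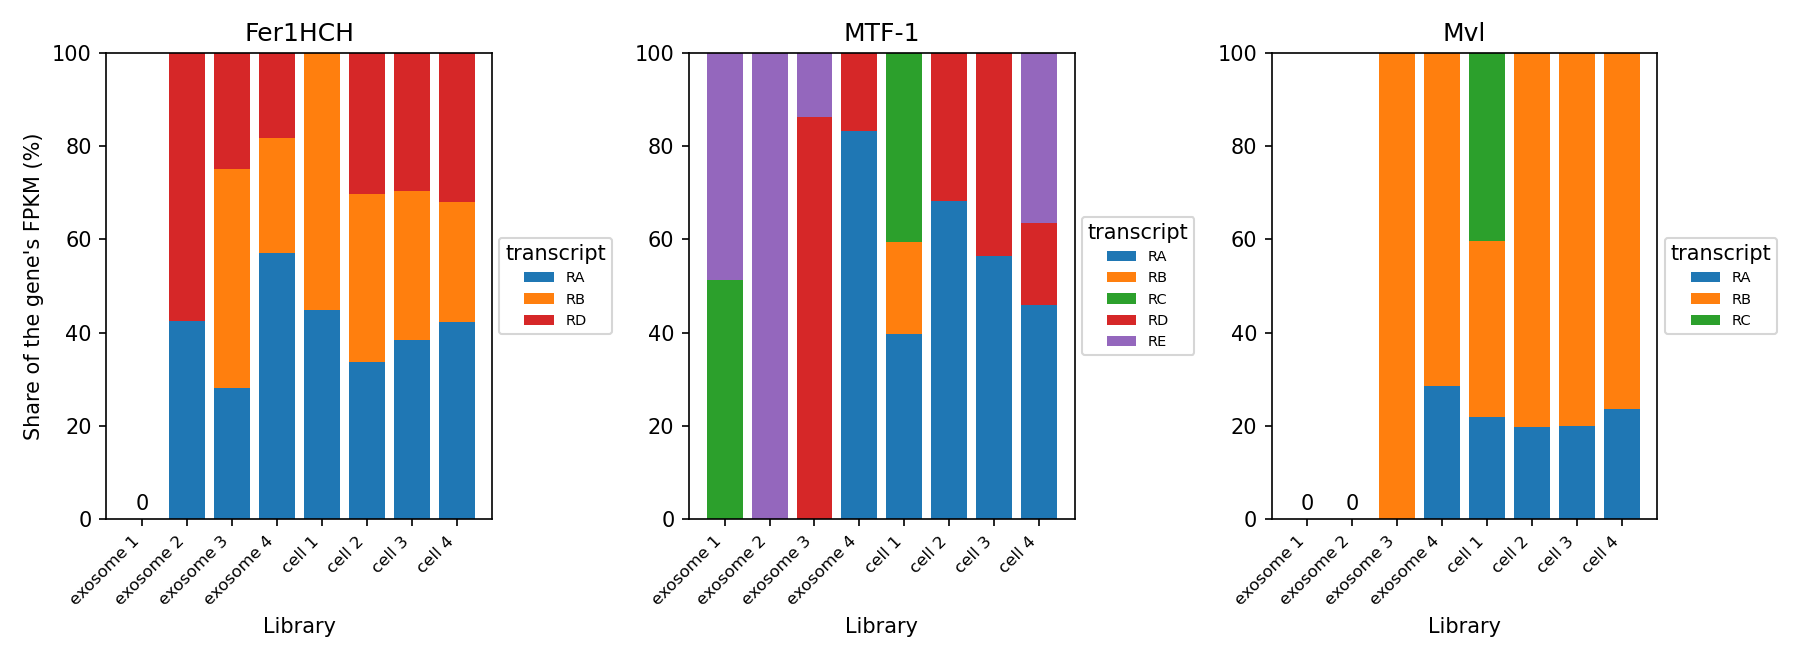
Share of the gene's FPKM given by each deposited transcript of Fer1HCH, MTF-1 and Mvl in each library, in percent, with a 0 where the gene was listed at 0. RA, RB and RD together make up Fer1HCH in 5 libraries, while the transcripts listed for MTF-1 differ from library to library.

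Ferritin light chain had no value above 0. Fer2LCH (CG1469, 3R) has 3 deposited transcripts, each listed at 0 in all 8 libraries, and 3224 of all 14012 genes (23%) were at 0 throughout. Fer2LCH lies next to Fer1HCH, and in the Release 6 annotation the exons of these genes, on opposite strands, share 118 bases. Use of strand in counting is not stated by the labels, and without it reads from the shared bases cannot be assigned. Of 42 genes whose span overlaps a gene whose median FPKM reached 200, 10 (23.8%) were listed at 0 throughout, against 20.9% of 12903 protein-coding genes matched. An exact 0 in such a table can be a failed estimate, so it is not read here as absence of the mRNA, and no ratio of heavy to light chain could be formed.

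Across the 9 genes, 6 passed the filter of an FPKM above 1 in at least 4 libraries and were tested: MtnA, MtnD, MTF-1, Ctr1A, Fer1HCH and Mvl. Limma called 0 of them higher and 0 lower in exosomes, as it called 0 of all 5868 genes in each direction (0%). At an unadjusted p under 0.05, with the spread pooled over genes, Fer1HCH and Mvl were lower, 2 of 6, where 271 of all tested genes were (4.62%). In the higher direction none of the 6 reached it, and 5 of all tested genes did (0.0852%). These unadjusted counts depend on the scaling: with quantile normalization, which moves the median of all genes to 0.11, 206 genes were higher and 156 lower, and again 0 were called. The median difference of the 6 was -2.05 on the log2(FPKM + 1) scale and that of all genes tested -1.01. No gene of the 6 had every exosome FPKM above or every one below all cell values, which 0.0341% and 0.75% of all tested genes had. All 6 differences were below 0, but MtnD was above 0 with quantile normalization, as was MtnA without exosome replicate 1 or without both libraries numbered 1. Of all tested genes, 85.7% were below 0. Exosome replicates 1 and 2 listed 5 and 2 of the 6 at 0, where 42.3% and 48.9% of all tested genes were at 0, and cell replicate 4 listed 1 of them at 0 against 4.45%.

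The order of levels was stable at the top and not below. In all 4 cell libraries MtnA exceeded Fer1HCH, and Fer1HCH exceeded each of the remaining 7. Mvl exceeded both MTF-1 and Ctr1A in 4 of 4 cell libraries, while MTF-1 exceeded Ctr1A in 2 of 4, so these neighbours could not be ordered. MtnD exceeded MTF-1 in 3 of 4 cell libraries and Mvl in 1. In exosome replicates 2 to 4 MtnA again exceeded Fer1HCH and Fer1HCH each of the rest.

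The genes whose profile over the 8 libraries was most like that of MtnA or Fer1HCH were chiefly ribosomal protein genes. Likeness was the mean absolute difference between log2(FPKM + 1) profiles, each centred on its own mean. For MtnA the 5 nearest were CG34335, annotated as a noncoding RNA in Release 6 (0.732), RpS29 (1.10), RpS15Aa (1.16), RpL35 (1.20) and RpS19a (1.20), beside a median of 3.13 over all genes tested. For Fer1HCH they were RpL35 (0.539), RpL13A (0.557), RpL36 (0.579), RpS19a (0.583) and RpL34b (0.584), beside a median of 2.52. All of these were listed at 0 in exosome replicate 1, as MtnA and Fer1HCH were. The profiles share the scale and depth of the libraries.

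Other genes of copper, zinc and iron handling gave the same picture of wide spread and no call. Of 40 such genes in 5 lists, 38 were in the table, 22 were tested, and limma called 0 in either direction, with 0 at an unadjusted p under 0.05. Their median difference was -1.54, and 14 of the 22 had a value under that of the median tested gene. A pair is named from each list that had tested genes, by median rank over the 8 libraries.

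In the copper list, 6 of 8 genes were tested, with a median difference of -0.52. Sod1, the copper-zinc superoxide dismutase, had 733, 114.9, 14.2 and 180.8 FPKM across exosomes, whereas cells gave 420, 638, 20.3 and 34.2, and its log2 difference of 0.06 (SE 1.80) left the groups overlapping (limma, adjusted p = 0.991). Scox, which helps to insert copper into cytochrome oxidase, had a difference of 0.48 (SE 1.42). Ctr1B, the inducible relative of Ctr1A, was listed at 0 in exosome replicates 1 to 3, at 4.09 FPKM in replicate 4 and at 1.59 to 19.5 in cells.

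Among the zinc exporters, 4 of 7 genes were tested, with a median of -1.52. ZnT63C ranged from 2.65 to 11.5 FPKM in exosomes and from 8.21 to 80.9 in cells, and ZnT86D from 0 to 3.40 and from 1.93 to 29.6. Among the ZIP family transporters, 5 of 10 were tested, with a median of -1.80. Zip99C, which in flies moves iron into the secretory pathway where ferritin is loaded, was the most abundant of them. Exosome replicates gave 0, 241, 20.5 and 69.4 FPKM, cell replicates 709, 746, 54.8 and 48.7, overlapping between the groups. Its log2 difference was -2.99 (SE 1.72; limma, adjusted p = 0.708). Catsup, a ZIP transporter of internal membranes, had a difference of -1.92 (SE 1.47).

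In the iron list, 7 of 13 genes were tested, with a median of -1.78. Alas, the first enzyme of heme synthesis, reached 74.6, 17.6, 24.3 and 15.7 FPKM across exosomes, whereas cells gave 35.2, 79.9, 19.96 and 5.56. FeCH, which inserts iron into heme as the last step, had 0, 8.79, 13.5 and 23.8 FPKM across exosomes, whereas cells gave 46.6, 106.4, 13.5 and 5.65. Their log2 differences were 0.14 (SE 1.57) and -1.78 (SE 1.47), with both groups overlapping in each. Fer3HCH, another ferritin heavy chain, was listed at 0 in all libraries. MtnE and MtnF were looked up by symbol and not found among the deposited genes, so they could not be analysed.

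**Figure D5:**
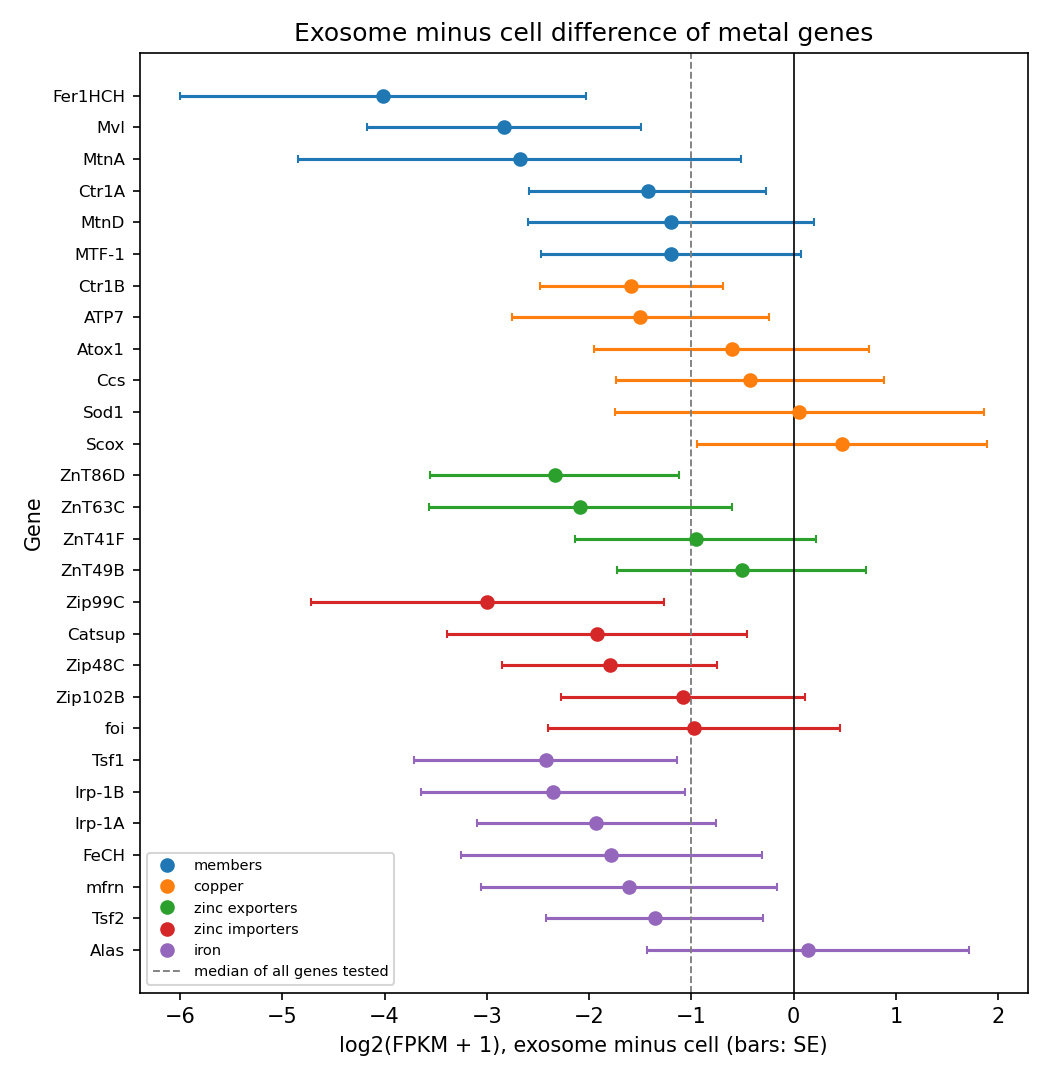
Exosome minus cell difference in mean log2(FPKM + 1) of the 6 tested genes among the 9 and of 22 other tested genes of metal handling. Points are estimates, and bars are SE from the spread pooled over genes of like level. The dashed line is the median of all genes tested, -1.01. None of these genes passed limma's test; the estimates run from -4.01 for Fer1HCH to 0.48 for Scox.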

How the data were processed

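The deposited gene table holds FPKM values per transcript for 8 libraries; this unit, made by the authors, was inferred from the values and from Cufflinks, which the submitters' processing notes name with TopHat2, DESeq2 and the build dm3, without versions or roles. Per the labels' protocols, a directional library kit was used. The 21081 transcripts were summed to 14012 genes by CG identifier, and names and gene order came from RefSeq and Ensembl annotations of Release 6, another build, so no coordinates are given. A gene was tested if 4 or more libraries listed it at an FPKM above 1. The test ran on log2(FPKM + 1), a scale that understates changes of low genes, with limma 3.58.1 in R 4.3.3 (trend, no block, Benjamini-Hochberg at 0.05). Limma pooled the spread of all genes at a given level, and a single gene's own spread carried practically no weight. Each SE and p is therefore that of a typical gene at that level. Depth was estimated from 9039 single-transcript genes whose low FPKM fell on whole multiples of a step: 75.0% to 86.8% lay within 0.15 of a whole number in 6 libraries, where an even spread gives 30%. The step was fitted to the same values. Both procedures were tested on simulated data, limma with a pass mark only at a spread far below that of the data. The depth fit was simulated at a single shortening. The power of limma at the spread of the data is not given here, so 0 calls are not read as no difference. The 9 members, the lists and the tests were chosen with earlier results of these data known. Named genes were the members, the called or otherwise the top 2 tested genes by median rank of each list, and the 5 nearest profiles of MtnA and Fer1HCH; Ctr1B, Fer3HCH and Dph3 were added after their values were seen. Alternatives covered scaling, pseudocount, filter, replicate block and libraries left out. The transposon table was not used here. No sequences were at hand to print.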

Additional observations from a re-analysis of the deposited data

Results flagged for a closer look

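In 14 groups of 4 libraries with any spread in FPKM, 3 values stood apart by Dixon's criterion for the gap over the range. Chance flags about 5% of groups of normal values on one scale. The values here were raw FPKM from libraries of unequal scale, so the count is not set against that rate. MtnA at 67976 FPKM in cell replicate 2 lay far above the other cell libraries, with a gap of 0.957 of the range, in the library with the highest summed FPKM. MtnD at 136.8 FPKM in exosome replicate 4 had a gap of 0.923. MtnB at 9.50 FPKM in the same library was the single exosome value above 0, so that its gap was the whole range.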

How the results depend on the processing

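The count of genes called by limma was 0 under 15 of 16 alternatives, including every library left out in turn. With percentile ranks in place of log2 values it was 1, Dph3, lower in exosomes by a change of -60.4 percentile points (adjusted p = 0.0166); the cause was not tested. Of the alternative values of the 6 genes' log2 differences, 90 kept their direction and 3 did not; none was called, with adjusted p of 0.210 or more. MtnA turned to 0.80 without exosome replicate 1, where it was listed at 0, and to 0.59 without both libraries numbered 1. MtnD turned to 0.50 with quantile normalization, which moved the median of all genes from -1.01 to 0.11. The same scaling gave -0.10 for MTF-1, -0.25 for Ctr1A and -1.62 for Mvl. With one library left out, differences ran from -4.15 to 0.80 for MtnA, -5.28 to -1.64 for Fer1HCH, -3.35 to -2.23 for Mvl, -2.68 to -0.31 for MtnD, -1.93 to -0.98 for Ctr1A and -1.85 to -0.78 for MTF-1. Ranked by the highest transcript, the median rank in cells moved from 13 to 52 for Fer1HCH and from 3602 to 5085 for MTF-1. With the replicate block 0 genes were called, and 163 were lower at an unadjusted p under 0.05 against 271 without it. Same-numbered libraries correlated in their deviations at 0.233, 0.191, 0.452 and -0.0676. For exosome replicates 1 to 3 this was higher than with any other cell library. Exosome replicate 4 correlated most with cell replicate 2, at 0.413. Whether the numbers pair the samples was not settled by these values. The fit without a block was kept as planned, with the block as an alternative. At the filter of FPKM 10, MTF-1, Ctr1A and Mvl gave no value. Tests for counts were not run, since the table holds FPKM.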
